A study of Mus musculus with 12 samples.

Results

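The circadian clock genes Per1, Per2, Per3, Cry1, Cry2, Arntl, Clock, Nr1d1, Nr1d2 and Dbp were examined in the hippocampus of Srf mutant and heterozygous mice after pilocarpine. They were found by gene symbol in the platform annotation, and each of the 10 genes had 1 probe set of its own, out of 19938 genes so represented among 23410 probe sets with a gene. All 10 entered the test, since no filter on low values was applied. Each of 12 mice gave 1 hippocampal RNA sample for 1 array (Affymetrix Mouse Gene 1.0 ST), and levels are given on the log2 scale of the deposited values.

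There were 4 groups of 3 mice. Heterozygous (het) mice carried 1 floxed Srf allele (Srf loxp/+) and mutant mice carried only floxed Srf alleles (Srf loxp/loxp). All mice were positive for CaMKCreERT2, a Cre recombinase driven by the Camk2a promoter in glutamatergic forebrain neurons and switched on by tamoxifen, which every mouse had received. Srf therefore remained intact in glia, vessels and other cells outside this promoter's reach. All were C57/Bl6 mice of both sexes and were labelled as 7 to 10 weeks old. Het control and mutant control mice received Ringer solution. Het mice with status epilepticus (SE) received 335 or 350 mg/kg pilocarpine, a muscarinic agonist, and were in SE for 40 min. Mutant mice with pilocarpine received the same range of doses and had seizures without reaching SE. The study describes these seizures as grade 4 in 1 passage and as grade 4 or above in another. The sample label of these mice, which they share with the het mice in SE, gives a seizure only. Pilocarpine was preceded by 1 mg/kg methyl scopolamine given 20 min earlier. The labels call the het mice wild-type or control. The dose of each mouse, the time of day of injection and harvest, and the interval from injection to harvest of the mutants without SE are not given in the sources used here. The response of the mutants therefore differs from that of the het mice in genotype and also in the absence of SE, and both cannot be told apart here. Mutants with SE were not analysed here.

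The circadian clock is a feedback loop of transcription. The factors CLOCK and ARNTL (also called BMAL1) bind E-boxes and activate the Per and Cry genes, whose proteins in turn inhibit CLOCK and ARNTL. In a second loop, the repressors NR1D1 and NR1D2 compete with ROR activators at ROR elements of the Arntl gene, and output factors such as DBP and its opponent NFIL3 act on D-boxes. Most tissues, hippocampus included, hold such a clock under the lead of the suprachiasmatic nucleus, and Per1 is in addition an activity-regulated gene that is driven by CREB and by glucocorticoids.

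Sequences are shown for those of the 10 genes whose RefSeq promoter window held the letters of a clock element. The further loop gene Ciart is shown as well, while Bhlhe41 and Tef, whose windows also held an E-box, are not. Of the 10 genes, 9 matched a RefSeq promoter window (GRCm38.p6, 250 bases before and 50 bases after a start site), in 13 windows. Capitals mark the E-box CACGTG in Per1 (chr11:69098699-69098948, + strand), Cry1 (chr10:85185055-85185304, - strand) and Ciart (chr3:95882258-95882478, - strand), and the D-box TTATGTAA in Per3 (chr4:151044708-151044915, - strand). They mark the ROR element (RORE, searched in its 10-base form) in Arntl (chr7:113207533-113207552, + strand). All are written 5′ to 3′.
Per1: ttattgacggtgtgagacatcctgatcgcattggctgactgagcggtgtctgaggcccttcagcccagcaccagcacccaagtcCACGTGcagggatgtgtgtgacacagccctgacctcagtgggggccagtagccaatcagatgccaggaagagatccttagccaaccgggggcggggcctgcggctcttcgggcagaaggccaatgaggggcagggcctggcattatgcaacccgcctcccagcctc
Cry1: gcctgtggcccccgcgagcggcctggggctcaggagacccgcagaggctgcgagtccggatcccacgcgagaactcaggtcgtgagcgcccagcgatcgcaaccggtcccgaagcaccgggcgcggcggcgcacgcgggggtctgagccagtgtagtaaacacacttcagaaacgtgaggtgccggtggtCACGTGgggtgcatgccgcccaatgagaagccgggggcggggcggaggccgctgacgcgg
Per3: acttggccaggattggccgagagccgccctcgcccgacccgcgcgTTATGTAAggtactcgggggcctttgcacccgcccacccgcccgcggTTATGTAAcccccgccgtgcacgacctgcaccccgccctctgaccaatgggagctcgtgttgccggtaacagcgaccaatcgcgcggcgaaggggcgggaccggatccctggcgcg
Ciart: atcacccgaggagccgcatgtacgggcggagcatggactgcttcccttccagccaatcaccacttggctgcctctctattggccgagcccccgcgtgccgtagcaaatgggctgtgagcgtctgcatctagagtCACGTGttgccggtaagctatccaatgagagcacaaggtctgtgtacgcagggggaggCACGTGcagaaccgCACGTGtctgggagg
Arntl: gcagaAAGTAGGTCAgggac

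Counted from the start site of its window, the first base of the E-box lay at position -166 in Per1 and at position -60 in Cry1. Per3 held 2 D-boxes, at positions -205 and -158. Ciart, a repressor of CLOCK and ARNTL that is no member of the 10, held 3 E-boxes, at positions -116, -58 and -44. Among other loop genes, whose sequences are not shown, Bhlhe41 held an E-box at position -153. Tef held one at position -127 and, in another window, at position -138. The ROR element of Arntl began at position 28, after the start site. The windows of Per1 and Arntl shown here lie inside the RefSeq genes, which begin at base 69095108 of chromosome 11 and at base 113178471 of chromosome 7, so that their start sites are downstream of the first base of the gene. Both strands were searched. The E-box was found in 2 of the 13 windows and in 7.15% of all 32851 windows of the same length. The D-box was found in 1 of the 13 windows against 0.938% of all, and the ROR element in 1 against 0.219%. The full cAMP response element TGACGTCA was found in 0 of the 13 windows and in 1.79% of all. Its core TGACG, which is part of the full element, was found in 4 of the 13 windows, those of Per1, Cry1 and Cry2, and in 20.8% of all. The CArG box, the sequence SRF binds, was found in 0 of the 13 windows and in 1.63% of all. A match is a description of these windows only.

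**Figure D1:**
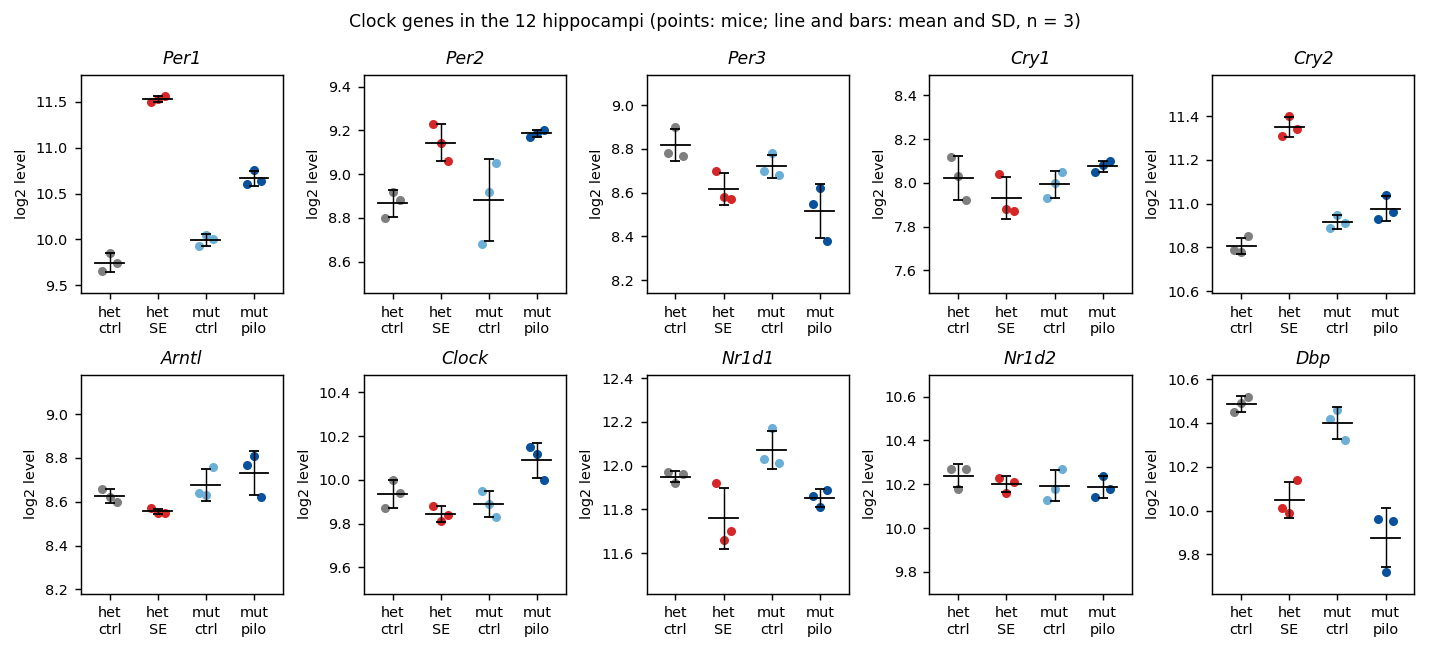
Log2 level of the 10 clock genes in each of the 12 mice (points), with the mean and SD of 3 mice per group (line and bars); each panel has its own vertical axis. Per1 and Cry2 stand apart in het mice with SE, Dbp is lower in both pilocarpine groups, and Nr1d2 overlaps in all groups.

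SE in het mice was accompanied by higher Per1, Cry2 and Per2 and by lower Dbp, while Per3, Cry1, Arntl, Clock, Nr1d1 and Nr1d2 did not pass the test. Of the 10 genes, 3 rose, 1 fell and 6 were not called, where a call is an adjusted p under 0.05 in limma. Among all probe sets tested 12% were called, 5.08% higher and 6.93% lower. The median difference of the 10 genes was -0.081 (log2), against -0.026 over all probe sets. In mutants with pilocarpine, Per1 rose and Dbp fell and 8 genes were not called, against 1.84% of all probe sets called, 0.871% higher and 0.965% lower. The median difference there was 0.059, against -0.004 over all probe sets. Without pilocarpine, 0 of the 10 genes were called between mutant and het controls by limma, against 0.120% of all probe sets (0.0384% higher and 0.0812% lower), with 2 genes at an unadjusted p under 0.05, and the number was also 0 under every alternative setting run.

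Per1 is a core inhibitor of the loop. Its level was 9.65, 9.85 and 9.74 in the 3 het controls and 11.50, 11.53 and 11.56 in the 3 het mice with SE. It was 9.93, 10.05 and 10.00 in the mutant controls and 10.60, 10.76 and 10.64 in the mutants with pilocarpine. The 4 groups did not overlap, and the order from low to high was het controls, mutant controls, mutants with pilocarpine, het mice with SE. Per1 rose by 1.78 (log2, standard error 0.06, adjusted p = 8.95e-10, limma) in SE, a 3.44-fold difference. In the mutants it rose by 0.67 (standard error 0.06, adjusted p = 0.000106, limma), a 1.6-fold difference. The response of the mutants minus that of the het mice was -1.11 (standard error 0.084, adjusted p = 7.95e-06, limma). Between the controls, the mutants lay 0.24 higher without passing the test (95% interval 0.11 to 0.37, adjusted p = 0.319, limma), with no overlap of the 3 mice each.

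Cry2, a partner of the PER proteins, was 10.79, 10.78 and 10.85 in het controls and 11.31, 11.40 and 11.34 in het mice with SE. In mutants it was 10.89, 10.95 and 10.91 without and 10.93, 11.04 and 10.96 with pilocarpine. All het mice with SE thus lay above the other 9 mice, and the mutant groups overlapped each other. Cry2 rose by 0.54 (log2, standard error 0.045, adjusted p = 5.86e-06, limma) in SE. In mutants with pilocarpine the difference was 0.06 (95% interval -0.04 to 0.16, adjusted p = 0.6, limma). The difference between these responses was -0.48 (standard error 0.064, adjusted p = 0.000921, limma). Per1 and Cry2 were the only 2 of the 10 genes with a called difference between the responses, both with the smaller response in the mutants, against 3.59% of all probe sets called, 1.47% higher and 2.12% lower. A repeated quantile normalization gave 1 higher and 2 lower among the 10 genes for this difference.

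Per2 was 8.80, 8.92 and 8.88 in het controls and 9.23, 9.14 and 9.06 in het mice with SE. It was 8.68, 8.92 and 9.05 in mutant controls and 9.17, 9.19 and 9.20 in mutants with pilocarpine. Within each genotype the mice with pilocarpine lay above the controls. Per2 rose in SE by 0.28 (log2, standard error 0.078, adjusted p = 0.0374, limma), a call that was lost in 9 of 22 alternative settings, where the adjusted p reached 0.13. These included the fit without any 1 of the 3 het controls, without het SE mouse 1 or 2, and without mutant pilocarpine mouse 1 or 2. In the mutants the difference was 0.30 (95% interval 0.13 to 0.47, adjusted p = 0.0769, limma), and 0.39 (adjusted p = 0.0232, limma) without mutant control 3. The difference between the responses was 0.03 (95% interval -0.22 to 0.27).

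Per3 lay between 8.77 and 8.90 in het controls, between 8.57 and 8.70 with SE, between 8.68 and 8.78 in mutant controls and between 8.38 and 8.62 in mutants with pilocarpine. Mice with pilocarpine lay below their controls in both genotypes, yet the difference of -0.20 did not pass the test in either (adjusted p = 0.0755 in SE and 0.159 in the mutants, limma). Without mutant pilocarpine mouse 3, which enters the shared spread only, the adjusted p in SE was 0.0352 (limma). Cry1 lay between 7.87 and 8.12 over all 12 mice. Its differences were -0.09 (95% interval -0.23 to 0.04) in SE and 0.08 (95% interval -0.05 to 0.22) in the mutants, neither past the test.

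**Figure D2:**
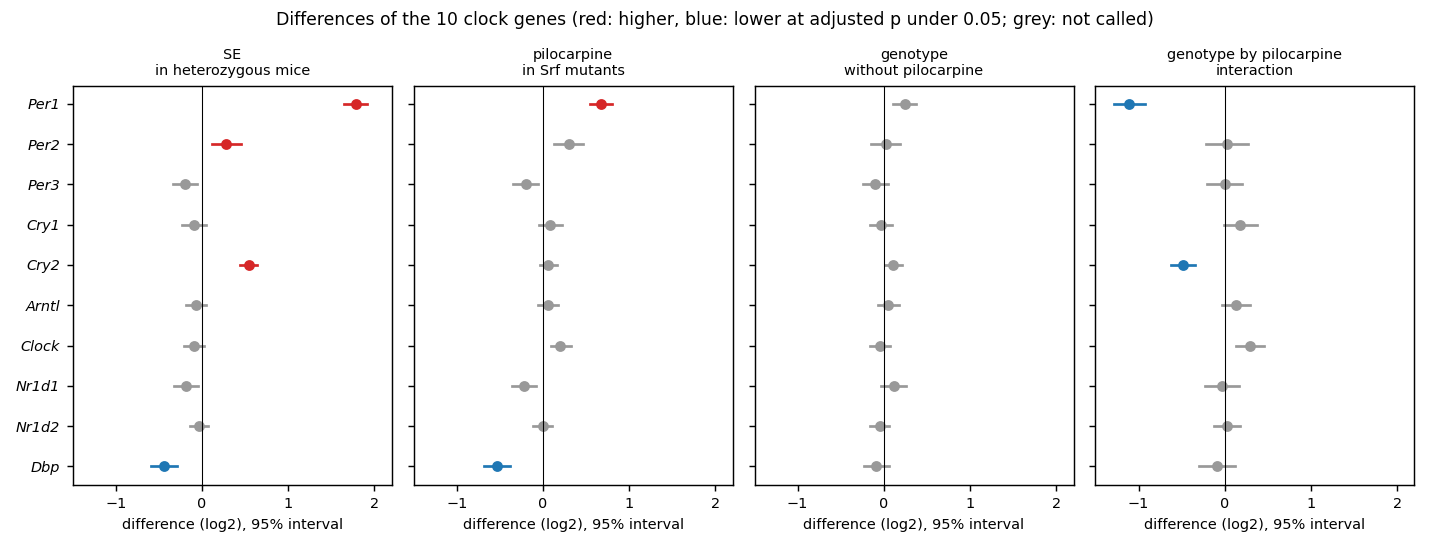
Log2 difference (horizontal axis) and 95% interval of each clock gene in 4 comparisons; red marks genes called higher, blue genes called lower and grey genes not called at an adjusted p under 0.05. Per1 has a difference of 1.78 in SE and 0.67 in mutants with pilocarpine, and all genes are grey in the comparison of genotypes without pilocarpine.

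The activators Arntl and Clock did not pass the test in any comparison. Arntl was 8.66, 8.62 and 8.60 in het controls, 8.57, 8.55 and 8.55 in SE, 8.64, 8.63 and 8.76 in mutant controls, and 8.77, 8.81 and 8.62 in mutants with pilocarpine. The 3 het mice with SE were the lowest of the 12, at a difference of -0.07 (95% interval -0.19 to 0.05, adjusted p = 0.486, limma). Clock was 9.87, 10.00 and 9.94 in het controls, 9.88, 9.81 and 9.84 in SE, 9.95, 9.89 and 9.83 in mutant controls, and 10.15, 10.12 and 10.00 in mutants with pilocarpine. The mutants with pilocarpine lay above the mutant controls by 0.20 (95% interval 0.09 to 0.32, adjusted p = 0.0817, limma). The difference between the responses of Clock was 0.29 (95% interval 0.13 to 0.46, adjusted p = 0.0549, limma). That value crossed the threshold in 6 alternative settings, among them the fit without mutant pilocarpine mouse 3 (0.34, adjusted p = 0.0276, limma).

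Nr1d1, a repressor of Arntl, was 11.97, 11.92 and 11.96 in het controls and 11.92, 11.66 and 11.70 in SE. It was 12.03, 12.17 and 12.01 in mutant controls and 11.86, 11.81 and 11.89 in mutants with pilocarpine. Het mouse 1 with SE reached the controls, while the mutant groups did not overlap. The difference was -0.19 (95% interval -0.33 to -0.05, adjusted p = 0.0867, limma) in SE and -0.22 (95% interval -0.36 to -0.08, adjusted p = 0.122, limma) in the mutants. Without het mouse 1 with SE the former was -0.27 (adjusted p = 0.00905, limma). Nr1d1 overlaps Thra, a thyroid hormone receptor gene on the opposite strand, by 1075 bases of chromosome 11 (GRCm38.p6), and Thra itself differed by -0.06 in SE and by 0.03 in the mutants, neither called. Nr1d2, the related repressor, lay between 10.13 and 10.27 in all 12 mice, and its groups overlapped in every comparison. Its differences were -0.04 (95% interval -0.14 to 0.07) in SE and 0.00 (95% interval -0.11 to 0.10) in the mutants.

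Dbp, an output activator at D-boxes, was 10.45, 10.49 and 10.52 in het controls and 10.01, 9.99 and 10.14 in SE. It was 10.42, 10.46 and 10.32 in mutant controls and 9.96, 9.72 and 9.95 in mutants with pilocarpine. All 6 mice with pilocarpine lay below all 6 controls. Dbp fell by 0.44 (log2, standard error 0.068, adjusted p = 0.000982, limma) in SE and fell by 0.53 (standard error 0.068, adjusted p = 0.00218, limma) in the mutants. The difference between these responses was -0.09 (95% interval -0.30 to 0.12, adjusted p = 0.738, limma). Both calls of Dbp were kept in each of 22 alternative settings.

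Counted by overlap alone, 3 of the 10 genes lay apart on the high side and 3 on the low side in SE, against 30.4% of all probe sets (10.6% high and 19.8% low). In the mutants with pilocarpine 4 lay apart on the high side and 3 on the low side, against 18.4% of all probe sets (7.04% high and 11.4% low). Between the controls Per1, Cry2 and Nr1d1 lay apart, all higher in the mutants, and 0 genes lay apart on the low side, against 13.6% of all probe sets (6.10% high and 7.46% low). Both pilocarpine comparisons use their own controls, and the comparison of genotypes shares its mice with both.

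**Figure D3:**
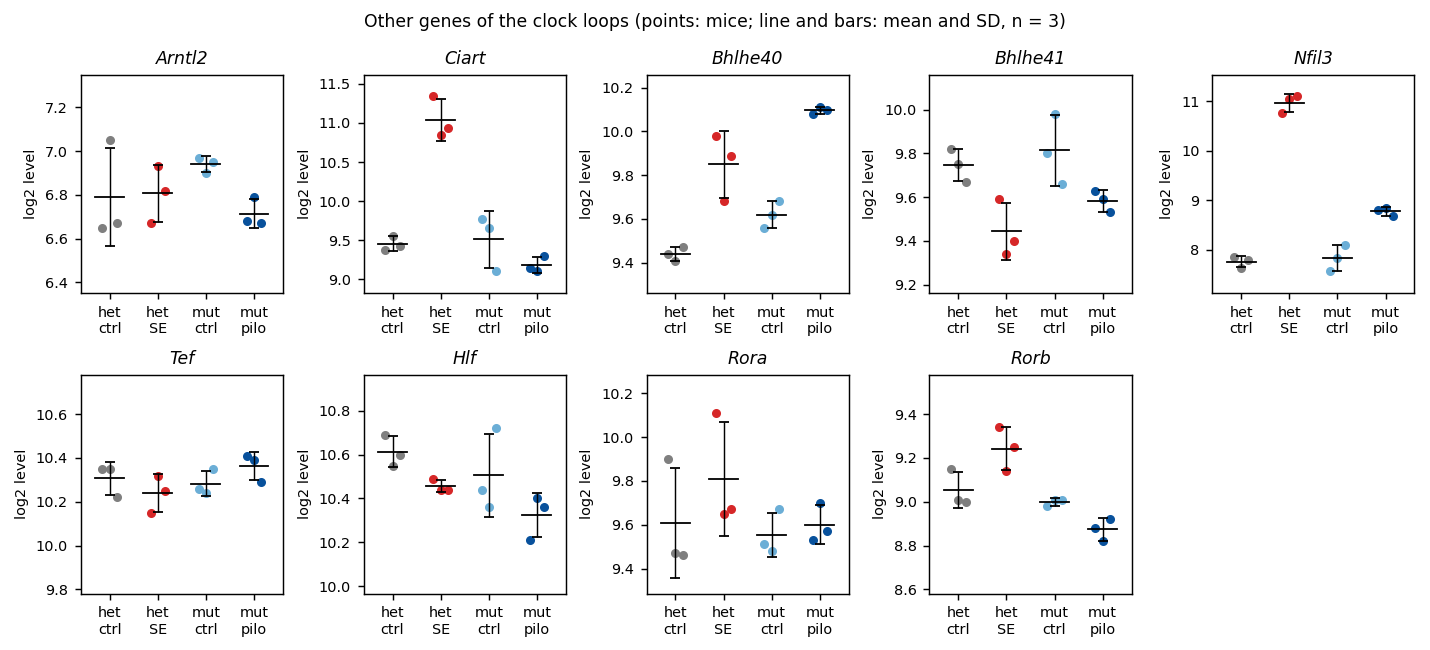
Log2 level of the 9 further loop genes that were measured, in each of the 12 mice (points) with the mean and SD of 3 mice per group. Nfil3 and Ciart are highest in het mice with SE, Ciart lies between 9.11 and 9.30 in mutants with pilocarpine, and Bhlhe40 is higher in both pilocarpine groups than in their controls.

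Of 11 further genes of the loops, 9 were measured, and in SE 4 of these rose and 1 fell. Of all probe sets, 5.08% rose and 6.93% fell in SE. Nfil3, the repressor that opposes DBP, was 7.85, 7.63 and 7.79 in het controls and 10.76, 11.04 and 11.10 in SE. In mutants it was 7.56, 7.83 and 8.09 without and 8.81, 8.85 and 8.68 with pilocarpine. The mice with SE were far above the rest. Nfil3 rose by 3.21 (log2, standard error 0.12, adjusted p = 3.32e-09, limma) in SE, a 9.26-fold difference, and by 0.95 (adjusted p = 0.00192, limma) in the mutants, a 1.94-fold difference. The difference between the responses was -2.26 (standard error 0.17, adjusted p = 7.95e-06, limma). DBP and NFIL3 are known as opposing regulators of D-boxes, and their transcripts went opposite ways in both pilocarpine groups.

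Ciart, which holds the 3 E-boxes shown above, was 9.38, 9.56 and 9.42 in het controls and 11.34, 10.84 and 10.94 in SE. It was 9.77, 9.66 and 9.10 in mutant controls and 9.15, 9.11 and 9.30 in mutants with pilocarpine. The mice with SE did not overlap with any other group, and the mutant groups overlapped. Ciart rose by 1.58 (log2, standard error 0.16, adjusted p = 2.76e-05, limma) in SE, while in mutants with pilocarpine the difference was -0.32 (95% interval -0.66 to 0.02, adjusted p = 0.371, limma). The difference between the responses was -1.90 (standard error 0.22, adjusted p = 0.000368, limma). A second probe set of Ciart gave a difference of 1.70 in SE and -0.34 in the mutants.

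Bhlhe40, another repressor that competes at E-boxes, rose by 0.41 (log2, standard error 0.065, adjusted p = 0.00109, limma) in SE and by 0.47 (standard error 0.065, adjusted p = 0.00303, limma) in the mutants. It lay between 9.41 and 9.47 in het controls, 9.68 and 9.98 in SE, 9.56 and 9.68 in mutant controls, and 10.08 and 10.11 in mutants with pilocarpine. Its responses differed by 0.06 (95% interval -0.14 to 0.26). Its relative Bhlhe41 fell by 0.30 (adjusted p = 0.0314, limma) in SE, a call lost in 6 of 22 alternative settings, among them leaving out het control 1 or 2 or het SE mouse 2 or 3. Rorb rose by 0.19 (adjusted p = 0.0483, limma), a call lost in 15 of 22, among them leaving out any 1 of 10 of the 12 mice, het control 1 and het SE mouse 2 being the exceptions. Het control 1 and het SE mouse 1 held the highest levels of Rora, at 9.90 and 10.11 against 9.46 to 9.70 in the other mice, and Rorb reached 9.15 in the former and 9.34 in the latter. The same 2 mice stood apart in the mean level of 6 thalamic genes. It was 9.04 and 9.36 there and between 8.46 and 8.87 in the other 10 mice. Tcf7l2, at 8.50 and 8.72, and Calb2, Prkcd and Plekhg1 were above the other mice in both. Lef1 and Rgs16 were not. Lef1 was 7.93 in het control 1 and 7.94 in mutant control 3. Rgs16 was 8.98 in het control 1 and 9.43 in het SE mouse 3. Without both mice, a setting chosen after seeing the data, Rorb differed by 0.19 and was no longer called (adjusted p = 0.0728, limma). In that setting 27 of 31 calls of clock genes were kept. Tef, Hlf, Rora and Arntl2 were not called. Hlf and Tef belong with Dbp to 1 family of D-box activators, and differed by -0.16 (95% interval -0.34 to 0.02) and -0.07 (95% interval -0.19 to 0.06) in SE.

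**Figure D4:**
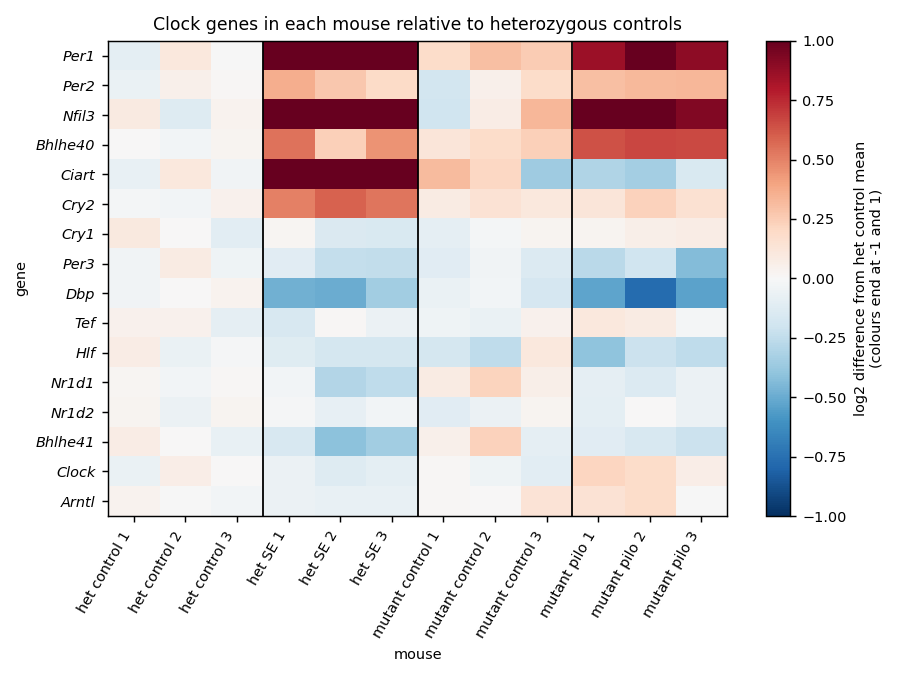
Log2 level of 16 clock genes (rows) in each of the 12 mice (columns) minus the mean of the 3 het controls, with colours ending at -1 and 1 and lines between the 4 groups. Per1, Nfil3 and Ciart reach the red end of the scale in all 3 het mice with SE, and Dbp is blue in all 6 mice with pilocarpine.

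Proteins that modify clock proteins were followed as well. Of 18 such genes 17 were measured, and in SE 0 rose and 4 fell, against 5.08% and 6.93% of all probe sets. Prkaa1, a catalytic subunit of AMP-activated kinase, which marks CRY1 for degradation, fell by 0.57 (log2, standard error 0.065, adjusted p = 8.18e-05, limma). Sirt1, a deacetylase that acts on ARNTL and PER2, fell by 0.46 (standard error 0.067, adjusted p = 0.000566, limma). Neither was called in the mutants, and the difference between the responses was called for both, 0.56 (adjusted p = 0.00451, limma) for Prkaa1 and 0.52 (adjusted p = 0.00887, limma) for Sirt1. Prkaa2, a second catalytic subunit of the kinase, and Cipc, an inhibitor of CLOCK, each fell by 0.22 in SE. The call of Prkaa2 was lost in 3 of 22 settings, without het control 1 or 3 or het SE mouse 2, and that of Cipc in 9 of 22, among them leaving out any 1 of the 3 het controls or het SE mouse 2 or 3. In mutants with pilocarpine 0 of these 17 genes were called by limma, with 3 at an unadjusted p under 0.05. Of all probe sets, 1.84% were called there.

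Of 10 genes taken as outputs of the clock 9 were measured. In SE 2 of these rose and 2 fell, against 5.08% and 6.93% of all probe sets. In mutants with pilocarpine 1 rose and 1 fell, against 0.871% and 0.965% of all probe sets. In SE Klf9 rose by 0.29 (adjusted p = 0.00127, limma) and Pdk4 by 0.85 (adjusted p = 0.0131, limma), and both are also glucocorticoid-induced genes. Wee1, a cell cycle kinase under E-box control, fell by 0.41 (adjusted p = 0.00372, limma) and Tspan4 by 0.20. The calls of Pdk4 and Tspan4 were lost in 3 and in 11 of 22 settings: that of Pdk4 without het control 2 or 3 or het SE mouse 3, that of Tspan4 among others without het control 1 or 3, het SE mouse 2 or 3, mutant control 1 or mutant pilocarpine mouse 2. Klf10 rose by 0.96 (adjusted p = 0.00044, limma) in mutants with pilocarpine, with levels between 9.60 and 9.63 against 8.61 to 8.74 in mutant controls, whereas its difference in SE was -0.26 and was not called. The responses of Klf10 differed by 1.22 (adjusted p = 0.000368, limma). Cirbp, a cold-inducible RNA-binding protein, fell by 0.56 (adjusted p = 0.0346, limma) in the mutants, a call lost in 11 of 22 settings, which include the fits without any 1 of the het controls, mutant control 1 or 2, or mutant pilocarpine mouse 1 or 2.

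All 10 genes of a list of CREB and activity-regulated genes rose in SE with a median of 3.357 (log2), among them Npas4 by 5.76 and Fos by 5.34. In mutants with pilocarpine 9 of that list rose, with a median of 1.245. Of all probe sets, 5.08% rose in SE and 0.871% in the mutants. The mean level of that list lay between 8.41 and 8.50 in het controls, 11.51 and 11.57 in SE, 8.57 and 8.74 in mutant controls, and 10.00 and 10.12 in mutants with pilocarpine, which is the order of the groups for Per1. Over the 12 mice the genes whose levels were most like that of Per1 were Nr4a1 (Pearson r = 0.995), Irs2 (0.995), Ifrd1 (0.992), Nr4a3 (0.992) and Errfi1 (0.992) among 19937 other genes. Cry2 was the 90th of these at r = 0.954, and Per2 the 832nd at r = 0.735. These values describe 4 groups of mice and include the differences between groups.

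After subtraction of group means, which leaves the spread between mice of 1 group, no other member was among the 5 genes most like Dbp or Arntl. For Dbp these were Snord73a (r = 0.949), Olfm4, Fadd, Atp6v1f and Rad9b, and for Arntl Colgalt1 (r = 0.960), Swt1, Pld1, H1f3 and Naalad2, over 12 mice and 19937 genes. The closest member was Nr1d1 for Dbp (r = 0.241, rank 4357) and Nr1d2 for Arntl (r = 0.519, rank 2380). With so few mice and so many genes, high values of r also arise by chance. Nothing is concluded from the absence of members among the first 5.

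Of 11 measured glucocorticoid-induced genes, 6 rose in SE, among them Errfi1 by 1.93 and Sgk1 by 1.06, and 5 were not called, with a median of 0.172 (log2). Those not called were Zbtb16 (0.14), Ddit4 (0.11), Nfkbia (0.09), Tsc22d3 (0.06) and Fkbp5 (-0.02). Errfi1 was also among the 5 genes most like Per1. The share of all probe sets that rose was 5.08% in SE and 0.871% in mutants with pilocarpine. One of the 11, Errfi1, rose by 0.69 in mutants with pilocarpine, where the median was 0.044, and Sgk1 differed by -0.07 without being called. Zbtb16 was 0.33 higher in mutant than in het controls (adjusted p = 0.0387, limma), the only call of that list between the controls. Of all probe sets, 0.120% were called there. All 11 genes lay higher in the mutant controls, with a median of 0.173 against -0.007 over all probe sets. Of these, 5 had an unadjusted p under 0.05 (limma). The mean level of the list was 10.56 to 10.58 in het controls and 10.64 to 10.83 in mutant controls. The part of neuronal activity, stress hormones and the drug itself in the levels of the clock genes was not tested.

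Whether the groups could differ in circadian phase was examined with an index over 8 genes. The index is the mean of Dbp, Nr1d1, Nr1d2, Per3, Tef and Ciart, which in nocturnal rodents peak in the daytime in most tissues, minus the mean of Arntl and Clock, which peak in the opposite phase, each gene taken relative to the het controls. Per1, Per2 and Cry1 were left out, the former pair since they respond to activity and Cry1 since it peaks later than the daytime genes. The assignment of the genes to phases is background knowledge and was not read from these files. At another phase of an intact clock both sides of such an index move in opposite directions.

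The index was 0.01, 0 and 0 in the 3 het controls and -0.01, 0.06 and -0.10 in the 3 mutant controls, so that the ranges of both genotypes overlapped, at a mean of -0.02 ± 0.081 (SD, n = 3) in the mutant controls. It was 0.24, 0.15 and 0.18 in SE. In the mutants with pilocarpine it was -0.38, -0.41 and -0.24, below all other mice. Mean and SD (n = 3) were 0.19 ± 0.044 in SE and -0.34 ± 0.088 in mutants with pilocarpine. The positive value in SE rested on Ciart. Without it the index in SE was -0.11 ± 0.010 (SD, n = 3), and that of the mutants with pilocarpine was -0.33 ± 0.069 (SD, n = 3). Without Ciart and Dbp these values were -0.04 and -0.23. The mean of Arntl and Clock relative to het controls was -0.06, -0.10 and -0.09 in SE. The daytime genes other than Ciart also lay lower there, Dbp by -0.44, Per3 by -0.20, Nr1d1 by -0.19, Tef by -0.07 and Nr1d2 by -0.04. Without Ciart, both sides of the index thus moved in the same direction in SE. In mutants with pilocarpine the mean of Arntl and Clock was 0.18, 0.18 and 0.03, and that of the daytime genes -0.20, -0.23 and -0.21.

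**Figure D5:**
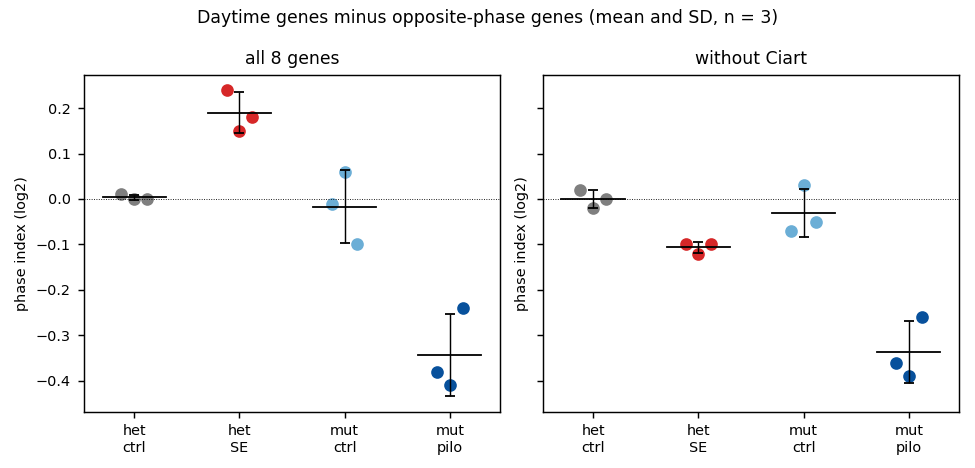
Phase index (log2, vertical axis) of each mouse, the mean of the daytime clock genes minus that of Arntl and Clock relative to het controls, with all 8 genes (left) and without Ciart (right); lines and bars are the mean and SD of 3 mice. Het controls average 0 by construction, and the mutant controls overlap them. Mutants with pilocarpine lie at -0.24 or below on the left, and the het mice with SE move from above 0 to below 0 when Ciart is left out.

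The genes of the index did not all move as 1 set. In SE, 1 of the 6 daytime genes rose (Ciart), 1 fell (Dbp) and 4 were not called, and neither Arntl nor Clock was called. In mutants with pilocarpine, Dbp was the only called gene of the 8. In these mutants the other daytime genes differed by -0.22 for Nr1d1, -0.20 for Per3, -0.32 for Ciart, 0.08 for Tef and 0.00 for Nr1d2, while Clock and Arntl differed by 0.20 and 0.06. The spread between mice within a group was small, with a standard deviation within groups of 0.044 for Cry2 to 0.11 for Per2 over the 10 genes. Within groups, the deviations of Dbp and Arntl from their group means had opposite signs in 9 of 12 mice (r = -0.66 over 12 mice). Those of Per3 and Clock had opposite signs in 3 of 12 (r = 0.72). These were the lowest and the highest r among the pairs examined. With Arntl, r was -0.27 for Nr1d1, 0.48 for Per3 and 0.52 for Nr1d2. With Clock, it was 0.05 for Dbp, 0.07 for Nr1d1 and -0.47 for Nr1d2. Deviations from a group mean cancel out within each group of 3 mice, so the 12 values of a gene are not independent. Since the time of day of harvest is not given in the sources used here, a difference in harvest time between groups and an effect of treatment cannot be told apart.

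The tissue label was checked against marker genes. The mean level of 12 hippocampal neuron markers lay between 11.15 and 11.34 in all mice, and 0 of the 12 were called by limma in any comparison, with 3 at an unadjusted p under 0.05 in SE, 1 in mutants with pilocarpine and 1 for the difference between the responses. Of 7 genes of the suprachiasmatic nucleus, Rorb in SE was the only one called. Six6, Prok2 and Nms, which are among those that define it, lay between 5.24 and 5.98 in all mice, and Vip, which hippocampal interneurons also express, between 8.87 and 9.43. Among markers of other cells, 2 of 6 microglial genes (Cx3cr1 and P2ry12) and 1 of 6 endothelial genes (Tek) fell in SE. Of 6 thalamic genes, Rgs16 rose. Of all probe sets, 6.93% fell and 5.08% rose in SE. The median difference in SE was -0.051 (log2) for microglial and -0.076 for endothelial genes, against -0.026 over all probe sets. In both lists 2 genes lay higher, among them Cdh5 by 0.34, which was not called. Het SE mouse 2 was lowest of its group in Cdh5 (8.52 against 9.35 and 9.30) and in Tek (7.15 against 7.60 and 7.63). In mutants with pilocarpine, no gene of the microglial, endothelial and thalamic lists was called by limma. There, 3 microglial, 1 endothelial and 1 thalamic gene had an unadjusted p under 0.05 (limma). All 6 measured oligodendrocyte genes lay lower there, with a median of -0.283 (log2) against -0.004 over all probe sets. None of the 6 was called by limma, 5 had an unadjusted p under 0.05, and 3 did not overlap with the mutant controls. Their mean level lay between 10.99 and 11.47 in mutants with pilocarpine, between 11.51 and 11.56 in mutant controls, between 11.38 and 11.66 in het controls and between 11.35 and 11.46 in SE. This level was thus lower than in mutant controls in the group where Dbp, which was called, and Nr1d1 and Per3, which were not, also lay lower. Its part in those values was not tested. In SE, where Dbp also fell, all 6 oligodendrocyte genes lay lower as well, with a median of -0.117 against -0.026 over all probe sets. There none of the 6 was called by limma, and all 6 overlapped with the het controls. Mutant pilocarpine mouse 1 was the lowest of its group in all 6 genes, with Mog at 10.59 against 10.95 and 11.18. The mean level of mice 2 and 3 was between 11.35 and 11.47. Dbp was 9.96 in mouse 1 and 9.72 and 9.95 in mice 2 and 3. In whole tissue, fewer cells of a type and less RNA per cell cannot be told apart. Srf, the deleted gene, was lower in mutant than in het controls by a log2 difference of -0.67 (adjusted p = 0.000263, limma), with no overlap between the groups. Xist, which marks females, was 9.92 in het control 3, 10.12 and 10.61 in mutant controls 2 and 3, and 10.07 in mutant pilocarpine mouse 3. It lay between 5.02 and 5.18 in the other mice, among them all 3 het mice with SE, so that the groups were not balanced by sex. The part of Xist in the results was followed by a fit with its level as a covariate.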

How the data were processed

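Hippocampal RNA of 12 mice, 3 in each of 4 groups, was hybridised to Affymetrix Mouse Gene 1.0 ST arrays, and replicates were separate animals per the labels. Scans were processed by the authors in Affymetrix Expression Console, and the deposited values are log2 intensities from RMA, that is, after background correction, quantile normalization and summary of probes to probe sets. In the platform annotation 21789 probe sets have a single gene, 1621 have several and 12146 have no gene. All 20 probe sets of the loop genes matched their symbol through Entrez identifiers in GRCm38.p6. The 10 genes and the 17 gene lists were chosen with earlier results of these data known.

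A model with a mean per group was fitted over all 12 arrays with limma 3.58.1 in R 4.3.3 (lmFit, eBayes), with Benjamini-Hochberg adjustment over the 23410 probe sets with a gene. The 4 contrasts were SE in het mice, pilocarpine in mutants, genotype without pilocarpine, and the response of the mutants minus that of the het mice. Where a gene had more than 1 probe set, that with the highest mean stood for it. Named were all 10 genes, all measured genes of the loops and of the index, of any other list up to 4 genes with the largest change, Srf, Xist and Thra as checks, and the 5 genes most like Per1, Dbp and Arntl. Tspan4 is named outside this rule, after its values were seen. Deviations of arrays with the same animal number correlated at -0.31 to 0.15, so that numbers were not treated as pairs.

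Precision is limited by 3 arrays per group. The fit was tested on simulated data (23410 probe sets). Changes of 0.5, 1 and 2 (log2) were recovered at 83.8, 98.8 and 100% in SE and at 83.8, 100 and 100% in mutants. The shares were 92.5, 98.8 and 100% between genotypes, and 67.5, 91.2 and 100% for the difference between responses. Of the calls, 6.06% were false in SE, 6.03% in mutants, 3.5% between genotypes and 3.47% for the difference. No change below 0.5 was simulated, so recovery of smaller differences was not examined. Alternatives covered the prior, dim probe sets (kept at a log2 value of at least 6 on at least 3 arrays), normalization, probe sets tested, arrays in the fit, array weights, a replicate block, Xist as covariate, the mean of a gene's probe sets, and leaving out each array. Promoters from RefSeq were searched with Python 3.11.15 and pandas 2.3.3. Npas2 and Cdkn1a were not analysed here, and promoters of Per2 and Bhlhe40 were not used here.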

Additional observations from a re-analysis of the deposited data

Results flagged for a closer look

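For 8 of 44 measured clock genes, of which 2 are among the 10, the response to pilocarpine differed between Srf mutants and het mice by the test of the difference itself (limma, adjusted p under 0.05), against 3.59% of all probe sets called. The response of the mutants minus that of the het mice was -1.11 (log2) for Per1, -0.48 for Cry2, -1.90 for Ciart and -2.26 for Nfil3, each of which rose in het mice with SE. It was 0.56 for Prkaa1, 0.52 for Sirt1 and 0.45 for Wee1, each of which fell in het mice with SE and was not called in the mutants, and 1.22 for Klf10, which rose in the mutants and was not called in SE. Wee1 (adjusted p = 0.0453, limma) was the only one of these calls to be lost under alternatives, in 12 of 21, among them leaving out any 1 of the 3 het SE mice, het control 1 or 2, mutant control 1 or 2, or mutant pilocarpine mouse 1 or 2, and was also lost without het control 1 and het SE mouse 1 together (0.43, adjusted p = 0.154, limma). The mutants had no SE, so that genotype and SE cannot be told apart in these values.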

How the results depend on the processing

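Of 8 called values of the 10 genes, 7 were kept in each of 21 or 22 settings and 1, Per2 in SE, was not; all 31 calls of clock genes kept their sign and 22 were kept in every one of these settings. The number of genes of the 10 that fell in SE was 1, and was 2 with a trend and robust prior, 3 with array weights, 2 with Xist as covariate and 1 to 2 without single mice; the number that rose, 3, was 2 to 3 without single mice, 2 with all probe sets tested and 2 with the replicate block. In mutants with pilocarpine the number that rose, 1, was 2 after repeated quantile normalization, 3 with array weights, 2 with Xist and 1 to 2 without single mice. For the difference between responses, 1 gene (Clock) was called higher with the trend and robust prior, without dim probe sets, after quantile normalization, with array weights and with Xist, and 0 to 1 without single mice. Without het control 1 and het SE mouse 1, chosen after seeing the data for their thalamic genes, 2 of the 10 rose in SE and 2 fell (Dbp and Nr1d1), with Per2 at 0.20 (adjusted p = 0.294, limma), and the calls of Rorb and Prkaa2 in SE and of Wee1 for the difference between responses were lost; Per2 (-0.01) and Cry1 (0.02) between controls and Per3 (0.06) and Nr1d1 (0.04) for the difference changed sign. The cause was not tested. The index in SE, 0.19, was 0.30 without Dbp, 0.25 without Nr1d1, 0.25 without Per3 and -0.11 without Ciart.

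Values near 0 that were not called changed sign. Nr1d2 in mutants with pilocarpine was 0.01 after quantile normalization, 0 after median centring, 0 with array weights, 0.01 with Xist and -0.04 to 0.03 without single mice. For the difference between responses, Per3 was 0.02 after quantile normalization, 0.03 with array weights and -0.05 to 0.07 without single mice, Nr1d1 -0.08 to 0.05 and Per2 -0.08 to 0.11 without single mice. Between controls, Per2 was 0 with array weights, -0.02 with Xist and -0.06 to 0.12 without single mice, and Cry1 -0.08 to 0.02 without single mice. With the animal number as replicate block, Per2 in SE kept its difference of 0.28 at an adjusted p of 0.0528 (limma). The calls of Cipc and Tspan4 in SE, of Cirbp in mutants and of Wee1 for the difference between responses were lost as well, and no other call of a clock gene was.

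Over all probe sets, calls differed by more than 1.5 times from the main counts in some settings. In SE, 1623 fell, and 1051 to 1689 without single mice (1051 without het SE mouse 3 and 1062 without het control 3). In mutants with pilocarpine 204 rose and 226 fell, against 121 and 40 with only the groups compared, 132 and 114 with all probe sets tested, and, of those that fell, 128 with the replicate block and 144 with Xist; without single mice 108 to 219 rose and 54 to 229 fell, with the fewest without mutant pilocarpine mouse 2. Between controls 9 were higher and 19 lower, against 1 to 24 and 6 to 23 without single mice and 1 to 13 and 8 to 22 in the other settings. For the difference, 344 were higher, against 224 after median centring, 217 with all probe sets, 584 with array weights and 181 to 414 without single mice. After median centring, 1216 rose and 1128 fell in SE, against 1190 and 1623; after quantile normalization 236 rose and 177 fell in the mutants.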
